A study of Mus musculus with 6 samples.

Results

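The genes of the neutral lipases and of the proteins that regulate them were examined in epididymal white adipose tissue (eWAT) of mice lacking Mettl14 in adipocytes. The members were chosen by symbol, without a rule on their values but with earlier results of these data known. They were Pnpla2, Lipe, Mgll, Abhd6, Ces1d and Ces1f, which encode lipases, and Abhd5, which encodes a co-activator. G0s2 and Hilpda, which encode inhibitors, and Pnpla3 complete the set. All 10 were found among the 21361 named genes of the expression table, and all 10 passed the filter for testing, a mean over the 6 libraries of 1 FPKM or more. FPKM are fragment counts divided by transcript length and by library size.

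The study compared 3 Mettl14Δfat mice with 3 Mettl14f/f mice, all male, fed a high fat diet (HFD) from 8 weeks of age and fasted overnight. In Mettl14Δfat mice a floxed Mettl14, which encodes a subunit of the m6A RNA methyltransferase, was deleted by an adiponectin-driven Cre. This Cre is known to act in adipocytes, brown ones included, and not in the other cells of the tissue. The Mettl14f/f mice carry the floxed alleles without the Cre, although one label field calls them wild type. The diet lasted 16 weeks according to the sample labels and 20 weeks according to the series description. Each library came from a separate mouse, with its own animal number in the labels.

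Stored triacylglycerol is broken down in steps. ATGL, the product of Pnpla2, removes the first fatty acid at the lipid droplet surface, hormone-sensitive lipase (HSL, from Lipe) acts mainly on the diacylglycerol left behind, and monoacylglycerol lipase (from Mgll) releases the last fatty acid from glycerol. CGI-58, the product of Abhd5, binds ATGL and activates it, and the small proteins G0S2 and HILPDA bind ATGL and inhibit it. In fasted fat, β adrenergic signaling and low insulin free CGI-58 from perilipin 1 and phosphorylate HSL, so much of the control of lipolysis lies in protein, which RNA-seq does not measure.

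The promoters of the ATGL genes, meaning the enzyme, its co-activator and both inhibitors, are shown because the RNA of both inhibitors moved in opposite directions. Each run covers 250 bases before to 50 bases after an annotated start in RefSeq (GRCm38.p6), 5′ to 3′ on the gene's own strand. Capitals mark ACGTG and GCGTG, the core letters of the hypoxia response element, searched on both strands. The coordinates in these 4 lines are those of the windows, and those given later in the text are of whole genes in the same build.
G0s2 (chr1:193273139-193273438, minus strand): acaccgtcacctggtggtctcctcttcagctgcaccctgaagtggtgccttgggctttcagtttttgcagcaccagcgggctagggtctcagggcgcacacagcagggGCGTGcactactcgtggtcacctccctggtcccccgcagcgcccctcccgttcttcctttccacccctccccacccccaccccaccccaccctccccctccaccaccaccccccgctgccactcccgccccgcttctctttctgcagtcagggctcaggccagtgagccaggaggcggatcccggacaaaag
Hilpda, downstream start (chr6:29272376-29272675, plus strand): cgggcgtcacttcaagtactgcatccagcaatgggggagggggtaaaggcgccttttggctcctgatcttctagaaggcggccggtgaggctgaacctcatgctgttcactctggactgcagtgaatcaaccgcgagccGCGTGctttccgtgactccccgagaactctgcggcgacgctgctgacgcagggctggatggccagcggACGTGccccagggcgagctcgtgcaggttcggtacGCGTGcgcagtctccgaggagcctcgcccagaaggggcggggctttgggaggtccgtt
Pnpla2 (chr7:141454938-141455237, plus strand): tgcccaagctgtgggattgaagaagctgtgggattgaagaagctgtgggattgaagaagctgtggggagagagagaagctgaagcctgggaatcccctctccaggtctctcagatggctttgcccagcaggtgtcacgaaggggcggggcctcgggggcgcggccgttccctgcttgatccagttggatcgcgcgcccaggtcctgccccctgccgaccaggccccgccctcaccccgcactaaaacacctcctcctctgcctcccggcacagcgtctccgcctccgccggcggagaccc
Abhd5 (chr9:122351366-122351665, plus strand): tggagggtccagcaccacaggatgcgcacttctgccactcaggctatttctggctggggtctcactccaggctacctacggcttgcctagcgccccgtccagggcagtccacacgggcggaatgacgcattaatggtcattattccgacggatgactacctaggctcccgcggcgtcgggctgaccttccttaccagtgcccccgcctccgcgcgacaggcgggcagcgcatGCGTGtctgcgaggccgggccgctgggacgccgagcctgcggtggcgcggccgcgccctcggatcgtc

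Hilpda, a gene named for its induction by hypoxia, held ACGTG 1 time and GCGTG 2 times in this window, at bases -43 to -39, -111 to -107 and -8 to -4 from the start. G0s2 held GCGTG 1 time, at -142 to -138, Abhd5 held it 1 time, at -18 to -14, and Pnpla2 held neither. Such matches are common: 19.6% of 32851 RefSeq promoters of this length held ACGTG and 32.4% held GCGTG. AGGTCANAGGTCA, the direct repeat bound by PPAR and RXR, GTAAACA of FOXO factors and TTGCGCAA of C/EBP factors, searched on both strands, and TATAAA, searched on the gene's strand, matched in none of these 4 windows. Their shares over all promoters were 0.0396%, 3.65%, 0.183% and 8.32%. The matches describe letters only, and no binding was measured here. Of the 10 members, 8 matched an entry of the promoter table, some with windows not shown. The window of the upstream Hilpda start overlaps the one shown. It held GCGTG 1 time, at bases 28 to 32 from that start, and no ACGTG. This is the same site as that at -111 to -107 from the downstream start. In Mgll, 1 window held ACGTG 2 times and GCGTG 2 times, and the other held them 1 and 6 times. Lipe held ACGTG 2 times and GCGTG 1 time in 1 window and neither in the other. Pnpla3 held GCGTG 2 times and no ACGTG, and Abhd6 held neither.

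Mettl14 was 4.21, 4.12 and 4.27 FPKM in Mettl14Δfat eWAT and 5.35, 5.01 and 5.81 FPKM in Mettl14f/f eWAT, a log2 fold change of -0.30 (SE 0.0658, adjusted p = 0.0108). All FPKM are given after scaling between libraries, with factors of 1.04 to 1.07 for Mettl14Δfat and 0.932 to 0.963 for Mettl14f/f, and all log2 fold changes are differences of log2(FPKM + 1), Mettl14Δfat over Mettl14f/f. Mettl14Δfat replicates 1 and 2 held transcripts of the male germ line, with summed levels of 179 and 278 FPKM over 8 markers, against 0.434 FPKM in Mettl14Δfat replicate 3 and 0.236 to 0.945 FPKM in Mettl14f/f libraries. Adipocyte markers were abundant in every library. Without Fabp4, which alone made up most of their sum, they summed to 1650, 1986 and 1193 FPKM in Mettl14Δfat and 2275, 1402 and 1986 FPKM in Mettl14f/f, and 3 of the 10 were higher, 2 lower and 5 not past the test. Macrophage markers were lower for 9 of 15 genes, and all 8 endothelial markers were higher. In whole tissue, fewer cells of a type and less RNA per cell cannot be told apart.

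Of the 10 members, 4 were higher in Mettl14Δfat eWAT at an adjusted p under 0.05 (Mgll, Abhd6, Abhd5 and G0s2), 1 was lower (Hilpda) and 5 were not past the test. Over the 12955 genes tested, 24.8% were higher, 24.7% were lower and 49.5% passed in either direction. The share of members that changed, 5 of 10, was therefore close to that of all genes, and what follows describes which members moved and by how much. The median log2 fold change of the members was 0.60, beside 0.01 over all genes tested. It was positive for 9 of 10 members, 4 of them past the test, and for 6632 of all 12955 genes tested. In the same 5 genes the libraries of both genotypes did not overlap, 4 above and 1 below, where 30.3% and 30.9% of all genes did not overlap in those directions and 61.2% in either. For each of these 5 the exact two-sided permutation test gave p = 0.1, the smallest that 3 against 3 mice allow.

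**Figure D1:**
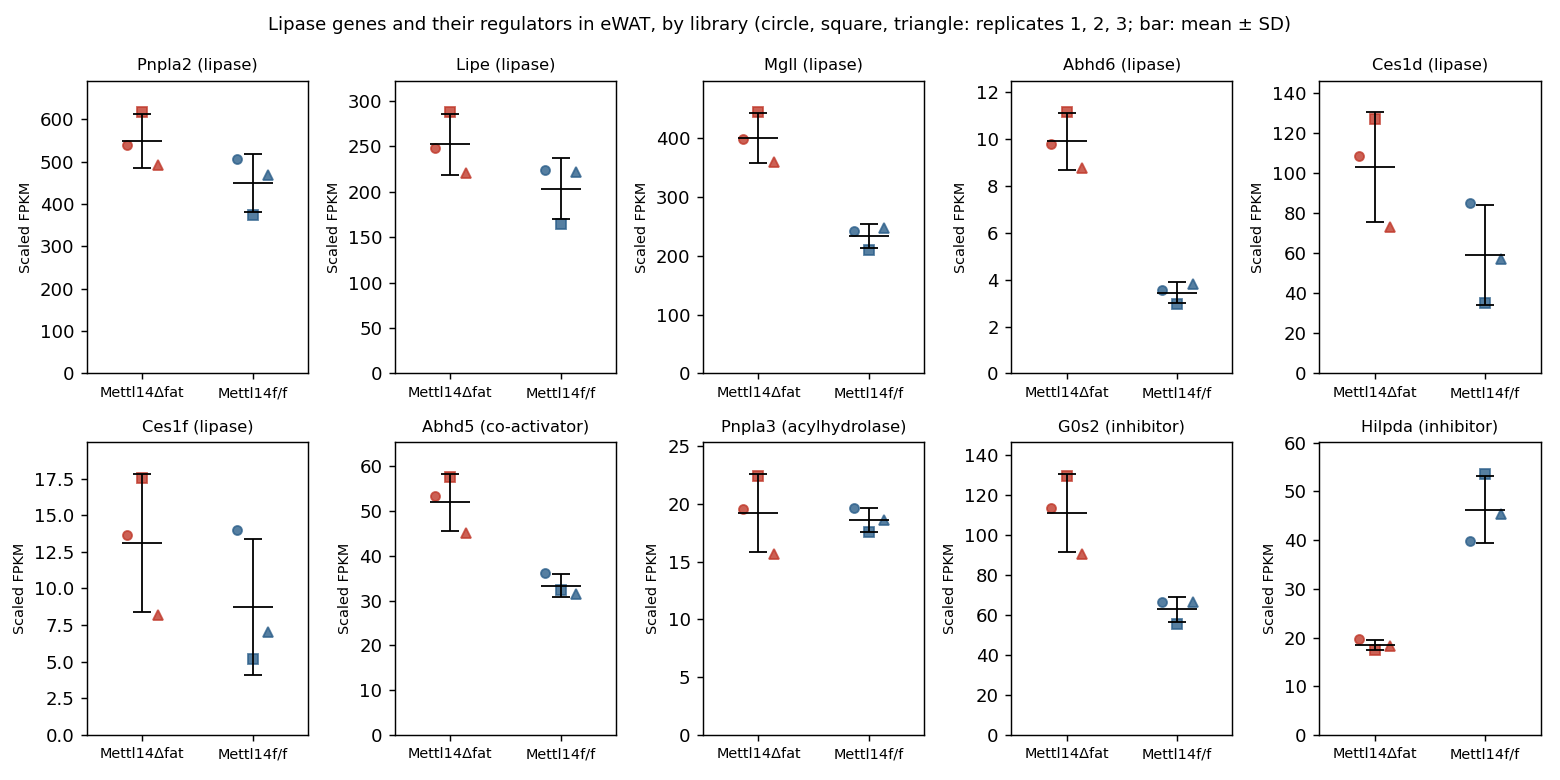
Scaled FPKM (y axis, starting at 0) of each gene in each library of Mettl14Δfat (red) and Mettl14f/f (blue) eWAT, with circles, squares and triangles for replicates 1, 2 and 3 and bars for the mean ± SD. Mgll, Abhd6, Abhd5 and G0s2 lie higher in all Mettl14Δfat libraries, Hilpda lies lower in all of them, and the other 5 overlap.

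Hilpda (chr6:29272488-29275449) showed the only decrease. Its level was 19.7, 17.5 and 18.2 FPKM in Mettl14Δfat eWAT and 39.9, 53.6 and 45.4 FPKM in Mettl14f/f eWAT. The highest Mettl14Δfat library lay well under the lowest Mettl14f/f library, and the means of 18.5 ± 1.11 FPKM in Mettl14Δfat and 46.3 ± 6.94 FPKM in Mettl14f/f (SD, n = 3 each) differed by 2.51 times. The log2 fold change was -1.27 (SE 0.111, adjusted p = 4.46e-04), and it lay between -1.39 and -1.12 in the 19 alternative fits, with adjusted p of at most 0.0204. HILPDA is known to inhibit ATGL in adipocytes, macrophages and liver cells. Beside it, the summed macrophage markers were 5931, 5088 and 7292 FPKM in Mettl14Δfat and 12574, 14481 and 13266 FPKM in Mettl14f/f. These sums include Lpl, also expressed outside macrophages, at 1902, 2051 and 1620 FPKM in Mettl14Δfat and 1937, 1722 and 1890 FPKM in Mettl14f/f. Of these 15 markers 9 were lower, 1 was higher and 5 were not past the test, and Lyz2, a lysozyme of macrophages, was at -1.09 (adjusted p = 0.0114). The part of these cells in the Hilpda result was not tested.

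G0s2 (chr1:193272160-193273188), the other inhibitor of ATGL, went the other way. It was 113, 129 and 90.5 FPKM in Mettl14Δfat eWAT and 66.2, 55.5 and 66.5 FPKM in Mettl14f/f eWAT. All 3 Mettl14Δfat libraries were above all Mettl14f/f libraries, with means of 111 ± 19.5 FPKM in Mettl14Δfat and 62.7 ± 6.23 FPKM in Mettl14f/f (SD, n = 3 each), 1.77 times higher. On the log2 scale it rose by 0.80 (SE 0.142, adjusted p = 0.0045). With Mettl14Δfat replicate 3 alone, whose germ line level was within the Mettl14f/f range, it was 0.53. With the germ line level as a covariate it was 0.52 (adjusted p = 0.0195). This covariate, a mean log2 level of germ line genes, was 5.24 and 5.86 in Mettl14Δfat replicates 1 and 2. It was 0.0945 in replicate 3 and 0.0732 to 0.271 in the Mettl14f/f libraries. The covariate fit therefore also rests mainly on replicate 3 and is not a separate check.

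The ratio of both inhibitors in the same library, which does not depend on scaling, was 5.76, 7.39 and 4.97 parts of G0s2 RNA to 1 of Hilpda RNA in Mettl14Δfat eWAT. In Mettl14f/f eWAT it was 1.66, 1.04 and 1.47. The log2 ratio thus differed by 2.13 between the genotypes, and G0s2 RNA was the more abundant of the pair in all 6 libraries, per length. The summed FPKM of both inhibitors overlapped, at 133, 147 and 109 in Mettl14Δfat and 106, 109 and 112 in Mettl14f/f.

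Pnpla2 (chr7:141455188-141460743), the gene of ATGL, was the most abundant member per length in every library. It was 539, 616 and 491 FPKM in Mettl14Δfat eWAT and 505, 373 and 469 FPKM in Mettl14f/f eWAT. The libraries overlapped, since Mettl14f/f replicate 1 exceeded Mettl14Δfat replicate 3. The means were 549 ± 63.2 FPKM in Mettl14Δfat and 449 ± 68.5 FPKM in Mettl14f/f (SD, n = 3 each), and the log2 fold change of 0.29 (SE 0.139) was not past the test (adjusted p = 0.121, exact permutation p = 0.2). Its 95% interval, unadjusted for the number of genes, ran from -0.04 to 0.63, which includes an increase of 1.5 times. Without scaling between libraries, as deposited, Pnpla2 and Lipe passed the test at 0.46 (adjusted p = 0.0436) and 0.48 (adjusted p = 0.0488), but there the median of all genes was itself at 0.15.

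Abhd5 (chr9:122351616-122381524), the co-activator, rose in these libraries. By qPCR in more mice, the authors reported that the mRNA of Abhd5 (as Cgi-58), Pnpla2 (as Atgl) and Adrb3 was not increased. They also reported more of these proteins by immunoblotting. From a heatmap of the RNA-seq they described higher expression of genes of β adrenergic signaling and lipolysis. In the libraries used here, the level of Abhd5 was 53.3, 57.6 and 45.1 FPKM in Mettl14Δfat eWAT and 36.3, 32.3 and 31.5 FPKM in Mettl14f/f eWAT. No libraries overlapped, and the means of 52.0 ± 6.35 FPKM in Mettl14Δfat and 33.4 ± 2.55 FPKM in Mettl14f/f (SD, n = 3 each) differed by 1.56 times. It rose by 0.62 on the log2 scale (SE 0.103, adjusted p = 0.0035), and the value was 0.43 (adjusted p = 0.0537) with Mettl14Δfat replicate 3 alone. Of the 50-base stretches of its GENCODE transcripts, 14.8% also occur in A730085K08Rik on the opposite strand. The sources used here do not say that counting used strand, and A730085K08Rik itself was listed at no more than 0.0966 FPKM in any library.

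Set against its regulators within each library, Pnpla2 RNA stood 4.76, 4.76 and 5.43 to 1 over G0s2 in Mettl14Δfat eWAT and 7.63, 6.71 and 7.06 to 1 in Mettl14f/f eWAT. Over Hilpda it stood 27.4, 35.2 and 27.0 to 1 in Mettl14Δfat and 12.7, 6.95 and 10.3 to 1 in Mettl14f/f. The enzyme was therefore lower relative to one inhibitor, by 0.52 on the log2 scale, and higher relative to the other, by 1.61, with no overlap of libraries in either ratio. Relative to Abhd5 it was 10.1, 10.7 and 10.9 in Mettl14Δfat and 13.9, 11.5 and 14.9 in Mettl14f/f. The co-activator thus had more RNA per unit of Pnpla2 RNA in each Mettl14Δfat library, by 0.34 on the log2 scale. Abhd5 and G0s2 RNA kept overlapping ratios, with 0.471 ± 0.0267 parts of Abhd5 to 1 of G0s2 in Mettl14Δfat and 0.534 ± 0.0556 in Mettl14f/f (SD, n = 3 each). Ratios of RNA levels do not give ratios of the proteins, and these ratios are descriptions to which no test was applied.

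**Figure D2:**
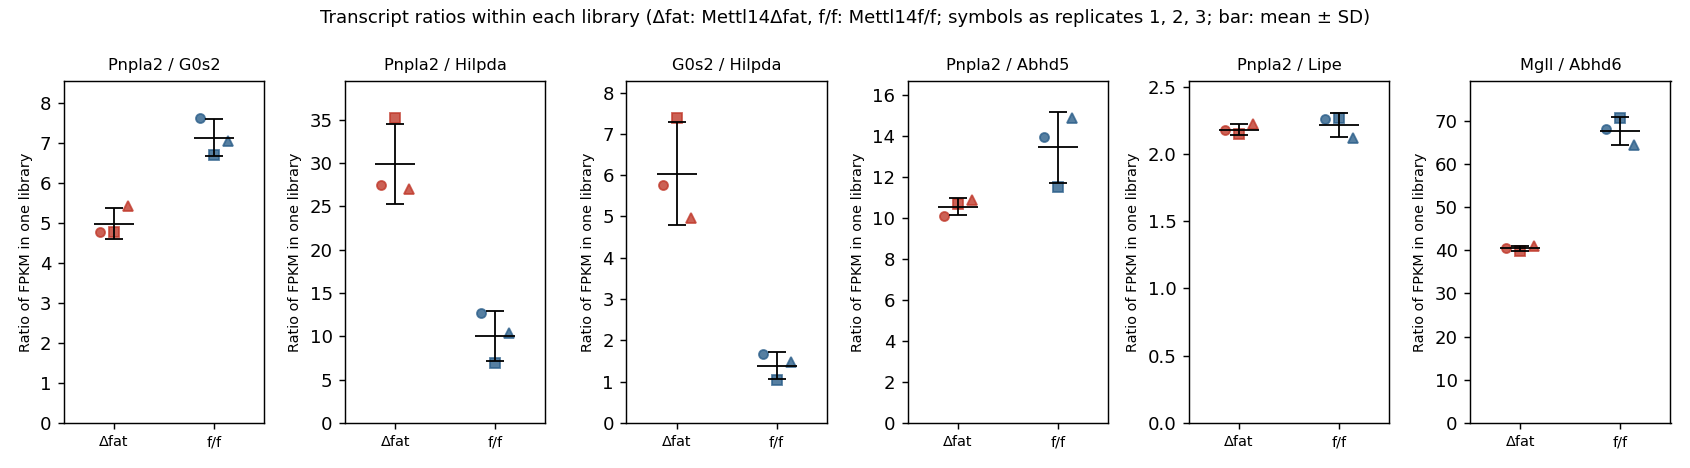
Ratios of deposited FPKM (y axis, each from 0) of pairs of genes within each library, Mettl14Δfat on the left (red) and Mettl14f/f on the right (blue), with symbols for replicates 1, 2 and 3 and bars for the mean ± SD. The ratios to Hilpda are higher and those of Pnpla2 to G0s2 and to Abhd5 lower in every Mettl14Δfat library, Mgll to Abhd6 falls to 40.4 ± 0.639 in Mettl14Δfat against 67.7 ± 3.21 in Mettl14f/f, and Pnpla2 to Lipe overlaps.

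Lipe (chr7:25379527-25398486), the gene of HSL, followed Pnpla2 closely. It was 248, 287 and 221 FPKM in Mettl14Δfat eWAT and 224, 164 and 222 FPKM in Mettl14f/f eWAT. The libraries overlapped, and the log2 fold change of 0.32 (SE 0.152, 95% interval -0.05 to 0.68) was not past the test (adjusted p = 0.126, exact permutation p = 0.3). The ratio of Pnpla2 to Lipe stayed within 2.14 to 2.22 in Mettl14Δfat and 2.11 to 2.27 in Mettl14f/f. Across the 6 libraries, which differ in genotype and cell make-up, Lipe had the fifth-highest Pearson r with Pnpla2 (0.991) among 8987 genes that averaged 5 FPKM or more. The others were Acad11 (0.994), a mitochondrial acyl-CoA dehydrogenase, Parva (0.993), a focal adhesion protein, Ccdc80 (0.993), a secreted matrix protein, and Gjc1 (0.993), a gap junction protein. None of these 4 was past the test between genotypes, but genes picked for following Pnpla2, itself not past it, could hardly have differed from it in this. Of the 50-base stretches of Lipe, 10.8% occur on the opposite strand in 4732471J01Rik, which was at 1.08 to 3.28 FPKM over the 6 libraries.

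The enzymes of the last step, the cleavage of monoacylglycerol, both rose. Mgll (chr6:88724412-88828360), the gene of the main monoacylglycerol lipase, was 397, 443 and 359 FPKM in Mettl14Δfat eWAT and 242, 210 and 247 FPKM in Mettl14f/f eWAT. The lowest Mettl14Δfat library was far above the highest Mettl14f/f library. The means were 400 ± 42.0 FPKM in Mettl14Δfat and 233 ± 20.3 FPKM in Mettl14f/f (SD, n = 3 each), 1.72 times higher, and the log2 fold change was 0.78 (SE 0.105, adjusted p = 0.0017). With Mettl14Δfat replicate 3 alone it was 0.63 (adjusted p = 0.038). Per unit of Lipe RNA, Mgll RNA was 1.60, 1.54 and 1.63 in Mettl14Δfat and 1.08, 1.28 and 1.11 in Mettl14f/f, so this ratio was higher in every Mettl14Δfat library.

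Abhd6 (chr14:8002888-8056773), a membrane-bound hydrolase of monoacylglycerol, showed the largest increase of the 10. It was 9.81, 11.1 and 8.76 FPKM in Mettl14Δfat eWAT and 3.56, 2.96 and 3.83 FPKM in Mettl14f/f eWAT. The libraries lay far apart, with means of 9.90 ± 1.2 FPKM in Mettl14Δfat and 3.45 ± 0.445 FPKM in Mettl14f/f (SD, n = 3 each), 2.87 times higher. The log2 fold change was 1.29 (SE 0.108, adjusted p = 4.12e-04). It is 1.52 for the ratio of the means without the added 1 FPKM, which understates the change of a gene at this level. It lay between 1.13 and 1.49 in the 19 alternative fits, with adjusted p of at most 0.0188. Abhd6 had the lowest mean FPKM of the members in both genotypes. Of its 50-base stretches, 5.3% also occur in Gm1833, so reads from these alone do not tell which gene they came from. How such reads were counted is not known here. Mgll RNA exceeded it 40.5, 39.8 and 41.0 times in Mettl14Δfat and 68.0, 70.7 and 64.3 times in Mettl14f/f.

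**Figure D3:**
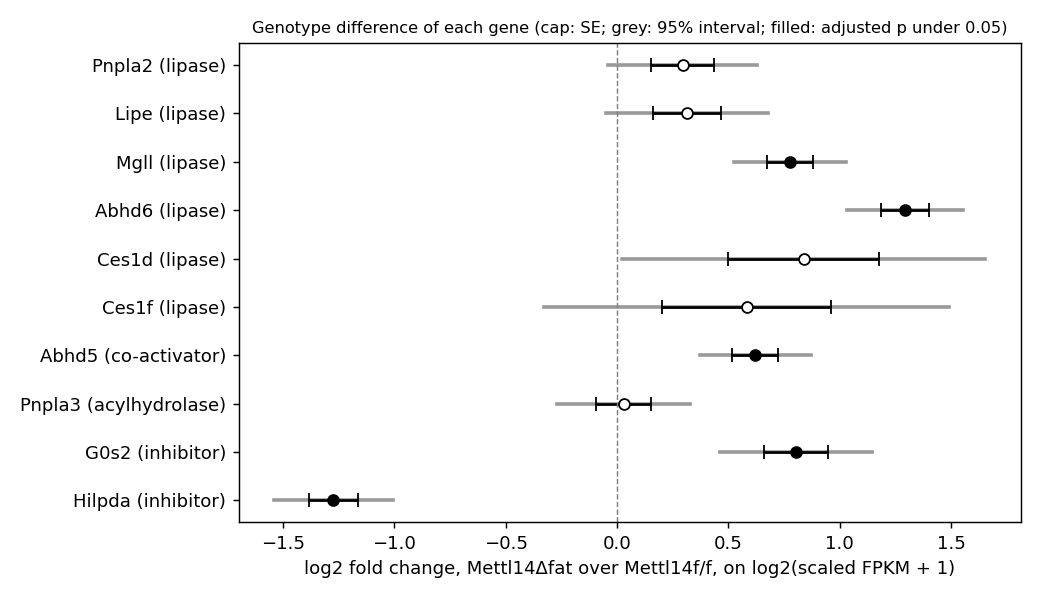
Log2 fold change of each gene (x axis, Mettl14Δfat over Mettl14f/f, on log2(scaled FPKM + 1)), grouped by role from lipases at the top to inhibitors at the bottom, with caps for the SE, grey lines for the unadjusted 95% interval and filled circles for an adjusted p under 0.05. Abhd6 is at 1.29 and Hilpda at -1.27, and the intervals of Ces1d and Ces1f are the widest.

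Ces1d (chr8:93166072-93197804) and Ces1f (chr8:93256236-93279766) encode carboxylesterases of the lipid droplet and endoplasmic reticulum, of which Ces1d is a triacylglycerol hydrolase of adipocytes. Ces1d was 108, 127 and 73.0 FPKM in Mettl14Δfat eWAT and 85.1, 35.2 and 57.1 FPKM in Mettl14f/f eWAT. The spread within each genotype was as wide as the difference, with Mettl14f/f replicate 1 above Mettl14Δfat replicate 3. The log2 fold change of 0.84 (SE 0.339, 95% interval 0.02 to 1.65) was not past the test after adjustment (adjusted p = 0.0804, exact permutation p = 0.2). It passed without Mettl14Δfat replicate 3, at 1.06 (adjusted p = 0.0314), and without Mettl14f/f replicate 1, at 1.14 (adjusted p = 0.0319). It was 0.52 (adjusted p = 0.199) without Mettl14f/f replicate 2, 0.67 (adjusted p = 0.19) without Mettl14Δfat replicate 2 and 0.39 (adjusted p = 0.601) with Mettl14Δfat replicate 3 alone. Ces1f was 13.6, 17.6 and 8.17 FPKM in Mettl14Δfat eWAT and 14.0, 5.17 and 7.02 FPKM in Mettl14f/f eWAT. The ranges overlapped, with Mettl14f/f replicate 1 above 2 of the 3 Mettl14Δfat libraries and the other 2 Mettl14f/f libraries below all of them, and the log2 fold change was 0.58 (SE 0.380, 95% interval -0.33 to 1.49, adjusted p = 0.239). With Mettl14Δfat replicate 3 alone it was 0.02 (adjusted p = 0.985). The pair share few sequences, 1.08% of the 50-base stretches of Ces1d and 0.903% of those of Ces1f occurring in other genes, all but 1 of them named as Ces1 genes. Ces1d exceeded Ces1f 7.95, 7.24 and 8.94 times in Mettl14Δfat and 6.09, 6.81 and 8.14 times in Mettl14f/f, and these ratios overlapped.

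Pnpla3 (chr15:84167776-84189521) encodes an acylhydrolase that binds CGI-58 and is known for a human variant linked to fatty liver. It was 19.6, 22.4 and 15.7 FPKM in Mettl14Δfat eWAT and 19.7, 17.6 and 18.6 FPKM in Mettl14f/f eWAT. The Mettl14Δfat libraries spanned the whole Mettl14f/f range. The log2 fold change was 0.03 (SE 0.125, adjusted p = 0.855), with a 95% interval of -0.27 to 0.33, and its sign turned in 6 of the 19 alternative fits. Of its 50-base stretches, 5.14% occur in other genes on the same strand.

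Ordered by level per length in Mettl14Δfat eWAT, the members ran Pnpla2, Mgll, Lipe, G0s2, Ces1d, Abhd5, Pnpla3, Hilpda, Ces1f and Abhd6. The ranges of neighbours over the libraries were separate down to Lipe over G0s2, and again for Ces1d over Abhd5 and Abhd5 over Pnpla3. Those of G0s2 and Ces1d overlapped, although G0s2 was above Ces1d within each of the 3 libraries, and so did those of the last 4 genes, each with the next. In Mettl14f/f eWAT the order was Pnpla2, Mgll, Lipe, G0s2, Ces1d, Hilpda, Abhd5, Pnpla3, Ces1f and Abhd6. There the ranges of Mgll and Lipe overlapped, with Mgll above Lipe within each library, and so did those of G0s2, Ces1d and Hilpda, each with the next. Hilpda was the sixth in Mettl14f/f, above Abhd5 in all 3 libraries, and the eighth in Mettl14Δfat, below Abhd5 in all 3.

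Within each genotype the members also varied from mouse to mouse in a shared order. In Mettl14Δfat eWAT 9 of the 10, all but Hilpda, were lowest in replicate 3 and highest in replicate 2, the order of the mean of the adipocyte markers, an order found in 31.3% of all genes tested. In Mettl14f/f eWAT, Pnpla2, Lipe, Pnpla3, Ces1d and Ces1f were lowest in replicate 2 and highest in replicate 1, again as the adipocyte markers, with 20.5% of all genes in that order. With the average of the Mettl14f/f libraries set to 0, the mean log2 level of these markers came to 0.02, 0.23 and -0.35 in Mettl14Δfat and 0.27, -0.39 and 0.12 in Mettl14f/f. Their spread within a genotype was wider than the difference between genotypes. The summed germ line markers took the same order in Mettl14Δfat. Scaled to the adipocyte markers, only Abhd6 of the 4 members that rose passed the test, with a log2 fold change of 1.34, and Mgll, Abhd5 and G0s2 had larger log2 fold changes of 0.84, 0.68 and 0.86 and adjusted p of 0.0972, 0.189 and 0.0809. Hilpda remained lower, at -1.22 (adjusted p = 0.0025). The endothelial markers, which include Cdh5 and Eng, summed to 353, 366 and 359 FPKM in Mettl14Δfat and 212, 186 and 199 FPKM in Mettl14f/f, beside the members that rose, and their part in those results was not tested.

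**Figure D4:**
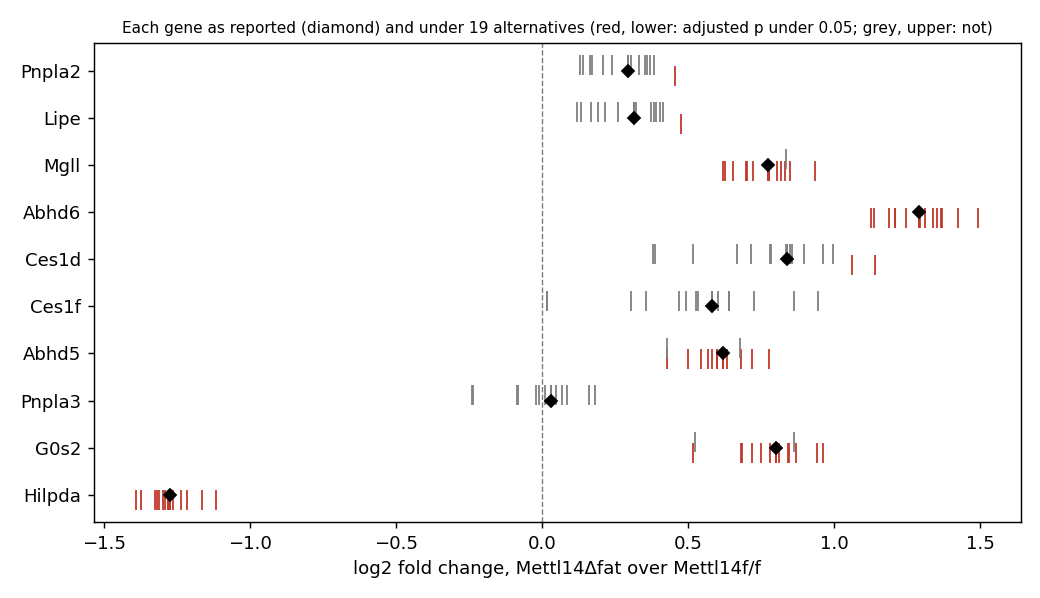
Log2 fold change (x axis, Mettl14Δfat over Mettl14f/f) of each gene as reported (black diamond) and in 19 alternative fits, as red marks below the line where the adjusted p was under 0.05 and grey marks above it where it was not. Abhd6 and Hilpda have red marks only, Ces1f and Pnpla3 grey marks only, and Pnpla3 lies on both sides of 0.

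The genes that carry the lipolytic signal moved in both directions, as did all genes tested. Of 23 tested, 5 were higher, 5 lower and 13 not past the test, with a median log2 fold change of 0.03. For this list and those that follow, the shares over all genes tested were 24.8% higher and 24.7% lower, with a median of 0.01. Adrb3, the main β adrenergic receptor of mouse adipocytes, was 19.0, 19.4 and 20.3 FPKM in Mettl14Δfat and 12.9, 8.90 and 15.2 FPKM in Mettl14f/f. Its log2 fold change was 0.66 (adjusted p = 0.0189) with no overlap, a call lost in 4 of 19 alternative fits. By qPCR in more mice, the authors reported no increase of Adrb3 mRNA, and by immunoblotting they reported more Adrb3 protein. Adcy6, an adenylyl cyclase, rose by 0.75, and Npr3, the clearance receptor of natriuretic peptides, by 0.73 on the log2 scale. Their calls were lost in 1 and 3 of 19 alternative fits. Adcy3, an adenylyl cyclase linked to obesity in mice, fell by 1.31, and Hcar1, the antilipolytic lactate receptor, fell by 0.42, a call lost in 11 of 19 alternative fits. Pde3b, the phosphodiesterase through which insulin restrains lipolysis, was at 0.41 (adjusted p = 0.0903).

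At the droplet, 6 of 17 genes of coat proteins and product handling were higher, 4 lower and 7 not past the test, with a median of 0.21. Plin1, which holds CGI-58 in the fed state, was 210, 246 and 193 FPKM in Mettl14Δfat and 179, 157 and 205 FPKM in Mettl14f/f, a log2 fold change of 0.26 (adjusted p = 0.129) with overlap. Aqp7, the channel through which glycerol leaves adipocytes, rose by 0.59 (adjusted p = 0.004), and Gk, glycerol kinase, by 0.64. Gk was 6.45, 7.54 and 3.88 FPKM in Mettl14Δfat and 3.45, 3.53 and 3.07 FPKM in Mettl14f/f, and it was at 0.17 (adjusted p = 0.311) with Mettl14Δfat replicate 3 alone and lost its call in 11 of 19 alternative fits. Fitm2, needed for droplet formation, rose by 0.81, Cav1, the caveolar coat protein, by 0.74, and Fabp4, a carrier of fatty acids, by 0.61. However, Fitm2 lost its call in 1, Cav1 in 4 and Fabp4 in 11 of the 19. Plin4 and Plin3, droplet coat proteins, fell by 0.64 and 0.49 on the log2 scale, and lost their calls in 8 and 3 of the 19.

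Among related hydrolases 4 of 18 were higher, 7 lower and 7 not past the test, with a median of 0.03. Lipa, the acid lipase of lysosomes, was 208, 166 and 266 FPKM in Mettl14Δfat and 535, 636 and 589 FPKM in Mettl14f/f, a log2 fold change of -1.48 (adjusted p = 0.0011). This lipase, abundant in macrophages, moved with the macrophage markers given above, and their part in it was not tested. Daglb and Dagla, which make 2-arachidonoylglycerol, a monoacylglycerol cleaved by the products of Mgll and Abhd6, fell by 1.37 and 0.51. Daglb was 32.8, 27.9 and 42.1 FPKM in Mettl14Δfat and 75.1, 99.7 and 93.7 FPKM in Mettl14f/f. Within each genotype its libraries took the order of the summed macrophage markers, and their part in it was not tested. Pnpla7, a lysophospholipase, fell by 0.67. Lpl, the lipoprotein lipase on the capillary wall, was at 0.00 (adjusted p = 0.993). Aadac, an arylacetamide deacetylase known from liver, was 13.8, 15.4 and 9.66 FPKM in Mettl14Δfat and 0.291, 0.376 and 0.414 FPKM in Mettl14f/f, a log2 fold change of 3.34. Lipg, endothelial lipase, rose by 1.34. Both are low in Mettl14f/f, so the added 1 FPKM understates their change, and with 0.1 FPKM added instead the log2 fold changes were 4.81 for Aadac and 2.39 for Lipg. Of the hepatocyte markers tested, 2 of 3, Hpx and Serpina1a, were also higher, with Hpx at 25.3, 22.4 and 32.2 FPKM in Mettl14Δfat and 0.986, 1.27 and 1.67 FPKM in Mettl14f/f. Without these genes the other 6, which include Alb, summed to 1.72, 2.07 and 1.54 FPKM in Mettl14Δfat and 1.51, 0.912 and 1.22 FPKM in Mettl14f/f, and Alb, the only one of them tested, was not past the test. Their part in the Aadac result was not tested.

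Of 12 transcription factors known to act on lipase genes, 6 were higher, 1 lower and 5 not past the test, with a median of 0.29. Foxo1, which activates Pnpla2 in fasting, rose by 0.54, Cebpa, a factor of adipocyte differentiation, by 0.46, and Srebf1, a factor of lipogenesis, by 0.50, of which Srebf1 lost its call in 9 of 19 alternative fits. Epas1, which encodes HIF-2α and is abundant in endothelial cells, rose by 0.75, while Hif1a fell by 0.37 on the log2 scale. Of 9 targets of hypoxia-inducible factors, 3 were higher, 2 lower and 4 not past the test, with a median of 0.23. Vegfa, the vascular growth factor, rose by 1.24, Ndrg1 by 0.67 and Pdk1, a kinase of pyruvate dehydrogenase, by 0.23, the last of which lost its call in 13 of 19 alternative fits. Slc2a1, the glucose transporter GLUT1, fell by 0.84 and Car9, a carbonic anhydrase, by 0.80. Hilpda, itself a known target, thus fell like Slc2a1 and Car9, while Vegfa rose.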

How the data were processed

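RNA from eWAT of 3 Mettl14Δfat and 3 Mettl14f/f mice was sequenced. Values are the FPKM of single libraries as deposited, with 2 decimals. The methods of the authors name STAR, HTSeq and DESeq2, the submitters' processing notes HISAT2, Bowtie2, RSEM and DESeq2 with mm10, with no version stated (not given in the sources used here). Another deposited table holds the comparison of the authors, with fold changes and p values, which were not used, and a mean signal for each group, a scaled count, which gave the depth only: divided by FPKM and gene length, it implies a median of 19200000 fragments for Mettl14Δfat and 22200000 for Mettl14f/f. The depth of single libraries is unknown, so precision rests on the spread between mice.

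The table has 21362 entries. An unnamed entry (1) was dropped, and 27 symbols turned into dates were restored. The plan allowed for counts. Since the values are FPKM, limma 3.58.1 (R 4.3.3) with a mean-variance trend was run on log2(FPKM + 1) of genes averaging 1 FPKM or more, after trimmed-mean scaling (30% of ratios and 5% of levels), with Benjamini-Hochberg adjustment over all genes tested and a threshold of 0.05. Single members were also tested by exact permutation (scipy 1.17.1). Tests are two-sided, and the procedure was tested on simulated data. Ratios used FPKM as deposited and sums the scaled FPKM. Promoters and coordinates came from RefSeq (21300 gene identifiers matched), and shared stretches from GENCODE transcripts of the same build. Lists were described by counts, with no set test. The members, lists and alternatives were chosen with earlier results of these data known. The genes named are the members, Mettl14, Adrb3, Plin1, Pde3b, Aqp7, Lipa and Lpl, the largest changes of each pathway list (up to 4 in its main direction and 2 in the other), the 2 most abundant of each cell type list and the 5 most like Pnpla2. Cyp11a1, Alb and the genes that share sequence with members stand outside this rule, and a gene that the rule names is not reported here. The alternatives were another pseudocount, filters and scalings, no trend, 2 blocks, a germ line covariate and libraries left out.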

Additional observations from a re-analysis of the deposited data

How the results depend on the processing

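Hilpda and Abhd6 kept direction and call in all 19 alternatives, Ces1f stayed not past the test in all 19, and the members lower stayed at 1. The members higher numbered 1 with scaling to the adipocyte markers and 2 with Mettl14Δfat replicate 3 alone, where 1 mouse is assumed to vary like the others, and 4 to 5 with single libraries left out. Pnpla2 and Lipe passed only with FPKM as deposited, at 0.46 (adjusted p = 0.0436) and 0.48 (adjusted p = 0.0488), a setting that moved the median of all genes to 0.15. All genes higher, 3214 as reported, numbered 4672 as deposited, 2085 with scaling to Rplp0, 1350 with the adipocyte markers, 1737 with a block for the series of animal numbers, 2124 with the germ line covariate and 1362 with Mettl14Δfat replicate 3 alone. All genes lower, 3202 as reported, numbered 1963 as deposited, 4352 with Rplp0, 533 with the adipocyte markers, 1544 with the series block, 2051 with the covariate and 1316 with replicate 3 alone. With libraries left out in turn they numbered 2222 to 3814 higher and 2241 to 3496 lower. Mettl14 lost its call as deposited (-0.16, adjusted p = 0.0856), with the adipocyte markers (-0.24, adjusted p = 0.703), the series block (-0.24, adjusted p = 0.0885), the covariate (-0.28, adjusted p = 0.07) and replicate 3 alone (-0.28, adjusted p = 0.144). The germ line covariate was high only in Mettl14Δfat replicates 1 and 2, so its fit also rests mainly on replicate 3. The causes were not tested.

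Same-numbered mice did not deviate together (r of 0.04, -0.09 and -0.13), and differently numbered mice gave r of -0.06 to 0.16. No pairing was therefore used in the main fit, but correlations over 3 mice a group cannot exclude one. With the replicate block 4 members were higher and 1 lower, 2656 genes were higher and 2558 lower, and Mettl14 was at -0.30 (adjusted p = 0.0325).

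Pnpla3 turned to -0.021 with scaling over all genes, -0.087 with Rplp0, -0.24 with the covariate and with replicate 3 alone, -0.083 without Mettl14Δfat replicate 2 and -0.0088 without Mettl14f/f replicate 2, with up to 0.16 when other libraries were left out. Lpl turned to -0.052, -0.12, -0.19 and -0.19 in the first 4 of these, and to -0.019, -0.073 and -0.049 without Mettl14Δfat replicate 1, Mettl14Δfat replicate 2 and Mettl14f/f replicate 2, with up to 0.097 when others were left out. With the covariate and with replicate 3 alone, Prm1 turned to -0.12 and -0.18, Prm2 to -0.047 and -0.11, Krt8 to -0.21 and -0.22 and Krt18 to -0.43 and -0.45. What could be detected with 3 mice a group depended on the spread of each gene, and ratios within a library carry no test.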

Other observations

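Among the remaining marker lists, 3 of 8 fibroblast progenitor genes were lower and 5 were not past the test. Col3a1, a fibrillar collagen, was 447 ± 27.9 FPKM in Mettl14Δfat and 988 ± 166 FPKM in Mettl14f/f (SD, n = 3 each), while Dcn, a matrix proteoglycan, was 744 ± 65.4 FPKM in Mettl14Δfat and 655 ± 64.1 FPKM in Mettl14f/f and not past the test (adjusted p = 0.178). Insl3, a Leydig cell hormone, was 80.6, 126 and 15.3 FPKM in Mettl14Δfat and 5.77, 8.07 and 5.99 FPKM in Mettl14f/f, so it was above the Mettl14f/f range in all Mettl14Δfat libraries, also in replicate 3, where the germ line markers were within the Mettl14f/f range. Of the 3 Leydig cell markers tested, 2 were higher, Insl3 and Cyp11a1, which makes pregnenolone and rose by 1.10 (adjusted p = 0.0035), and Star, a steroidogenic gene, was at -0.25 (adjusted p = 0.107). The epididymal epithelium markers, of which 6 of 7 matched, summed to 51.2, 87.1 and 1.35 FPKM in Mettl14Δfat and 1.63, 1.74 and 3.07 FPKM in Mettl14f/f.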
